A study of Mus musculus with 12 samples.

Results

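The genes described here are 45 genes of the ATF4 stress response, of amino acid and one-carbon metabolism and of tRNA charging. They were chosen by name, with earlier results of these data known, and each was found by its symbol and its Ensembl identifier. All 45 had counts, out of 38924 gene identifiers in the count data, and all 45 passed the filter on low counts that left 13811 genes for testing. By their known roles they fell into 10 stress transcription factors and direct regulators, 8 serine, glycine and one-carbon enzymes, 7 other amino acid enzymes and 20 cytosolic aminoacyl-tRNA synthetases.

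ATF4 is a leucine zipper transcription factor whose own translation rises when the initiation factor eIF2 is phosphorylated by a stress-activated kinase, so that its mRNA level alone does not report its activity. It binds composite C/EBP-ATF elements and drives genes that make, import and charge amino acids onto tRNA, together with factors that restrain or end the response. Activated T cells lean on the same enzymes, since a dividing lymphocyte needs serine, one-carbon units, asparagine, aspartate and proline to make protein and nucleotides.

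The study asked how T cells respond when STING, the adaptor of cytosolic DNA sensing, is activated. Wild-type (WT) and STINGgt/gt C57BL/6 mice of 8 to 12 weeks gave splenic cells labelled as CD4+ T cells. STINGgt/gt is the Goldenticket missense allele, which leaves no functional STING protein, and the labels call these cells STING KO. Sorted naive T cells were expanded for 2 days with antibodies to CD3 and CD28 and rested for 1 day without them, so all 4 groups hold cells that had been activated before. WT and STINGgt/gt cells then received either the solvent DMSO or 10-carboxymethyl-9-acridanone (CMA), a cell-permeable agonist of mouse STING, for 16 h. Each of the 4 groups had 3 RNA-seq libraries. A figure legend of the study calls the replicates biological. The labels do not say whether they came from separate animals or separate cultures, so p-values measure the spread between these libraries, whatever its source. Sample names of same-numbered DMSO and CMA libraries begin with the same digit, except for the second STINGgt/gt pair. What that digit stands for is not stated, and the main model treats the libraries as unpaired.

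The libraries held 27414450 to 43784910 reads on genes (median 36418677). Values below are CPM (read counts scaled to the total on genes) after TMM scaling, in the order of replicates 1, 2 and 3. Tmem173, which encodes STING, stood at 184, 190.3 and 183 CPM in WT cells with DMSO and at 181, 170.4 and 168 CPM in STINGgt/gt cells with DMSO. The Goldenticket allele changes an amino acid, so this mRNA level does not check the genotype labels. With CMA it was 296, 304 and 316 CPM in WT cells and 184, 169 and 175 CPM in STINGgt/gt cells.

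T cell transcripts were abundant in every library, Cd4 among them. The summed level of 8 T cell markers was 3287 to 3364 CPM in WT cells with DMSO and 3039 to 3066 CPM with CMA, and it was 3348 to 3391 and 3378 to 3455 CPM in STINGgt/gt cells with DMSO and CMA. Transcripts of other cell types were present and were unequal between the groups. The sum of 6 B cell markers was 632 to 695 CPM in WT cells with DMSO and 715 to 798 CPM with CMA, against 289 to 298 and 307 to 318 CPM in STINGgt/gt cells. The 6 CD8 and natural killer markers summed to 191 to 211 CPM in WT cells with DMSO, 81.7 to 90.8 CPM in WT cells with CMA, 67.8 to 71.9 CPM in STINGgt/gt cells with DMSO and 66.3 to 72.3 CPM with CMA. The 7 myeloid markers summed to 58.6 to 65.6, 70.9 to 75.0, 41.8 to 44.4 and 39.3 to 44.3 CPM in the same order of groups. With CMA in WT cells, 1 of the 8 T cell markers rose and 4 fell, 4 of the 6 B cell markers rose, 1 of the 7 myeloid markers rose (Cst3) and 4 fell, and 5 of the 6 CD8 and natural killer markers fell. No marker was at 0 in every library, and their part in the results below was not tested. In these bulk samples fewer cells of a type and less RNA per cell cannot be told apart.

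The promoters of several of the genes hold letters of the composite element that ATF4 binds together with C/EBP proteins. The motif searched was TGATGNAA, or TTNCATCA where the element lies on the opposite strand, in the 250 bases before and the 50 bases after each RefSeq start site (GRCm38.p6). It was found for 11 of the 37 genes in the promoter table (29.7%), against 1219 of all 27025 genes in that table (4.51%). The longer form TGATGCAAT was found for 3 of the 37 (8.11%), against 60 of all 27025 (0.222%). Among the roles it was found for 3 of 10 stress factors, 3 of 6 other amino acid enzymes, 5 of 13 synthetases and 0 of 8 serine and one-carbon enzymes. A match describes letters and is no binding site. Cth, Cars, Lars, Nars, Wars, Vars, Rars and Hars had no entry in the table.

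Stretches around 8 of these matches are shown because their genes come from the 3 roles with a match and cover responses described below from Asns with a deep fall to Aars with a shallow one. Each is printed 5′ to 3′ on the strand of its gene, with the motif in capitals. Positions count from the start site, with -1 the last base before it and 1 the first transcribed base, and give the first base of the motif. Asns, which makes asparagine, has the motif at -23 (chr6:7693210-7693262, minus strand). Chac1, an enzyme that degrades glutathione, has it at -193 (chr2:119351019-119351086, plus strand). Trib3, a pseudokinase that binds ATF4, has it at 15, after the start site (chr2:152344029-152344056, minus strand). In Pycr1, of proline synthesis, it lies at -103 in its longer form (chr11:120643814-120643881, minus strand), and in Got1, which makes aspartate, at -102 (chr19:43524670-43524737, minus strand). Among the synthetases it lies at -112 of Aars in its longer form (chr8:111033700-111033767, plus strand), at -15 of Tars (chr15:11399659-11399703, minus strand) and at 4 of Yars (chr4:129189896-129189923, plus strand). Aars has a second match, not in the longer form and not printed here, at 10, after the start site (chr8:111033841-111033868).
Asns: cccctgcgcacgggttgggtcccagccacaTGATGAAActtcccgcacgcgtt
Chac1: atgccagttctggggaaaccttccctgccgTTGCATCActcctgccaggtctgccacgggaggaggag
Trib3: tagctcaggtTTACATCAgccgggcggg
Pycr1: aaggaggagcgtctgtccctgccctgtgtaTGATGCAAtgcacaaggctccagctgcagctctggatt
Got1: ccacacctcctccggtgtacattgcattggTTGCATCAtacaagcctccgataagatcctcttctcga
Aars: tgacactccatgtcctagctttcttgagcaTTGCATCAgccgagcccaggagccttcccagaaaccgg
Tars: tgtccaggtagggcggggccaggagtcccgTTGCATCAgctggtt
Yars: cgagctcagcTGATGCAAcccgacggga

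In WT T cells CMA lowered most of these genes. In separate assays the study reported apoptosis after overnight CMA in T cells from WT but not STINGgt/gt mice. CPM values are relative within a library, and the part of dying cells in the results below was not tested. The mRNA of 38 of the 45 fell, 3 rose and 4 did not pass the test (edgeR's quasi-likelihood test, adjusted p under 0.05 over all 13811 genes). The response to CMA in WT cells was broad, since 37.4% of all genes tested fell and 33% rose. Against that background 84.4% of the 45 genes fell. The median log2 fold change was -0.61 over the 45 genes and -0.04 over all genes tested, with a range over the 45 from -2.27 to 1.28. Of the 38, 10 fell by at least 2-fold, and 1 gene, Ppp1r15a, rose by at least 2-fold.

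**Figure D1:**
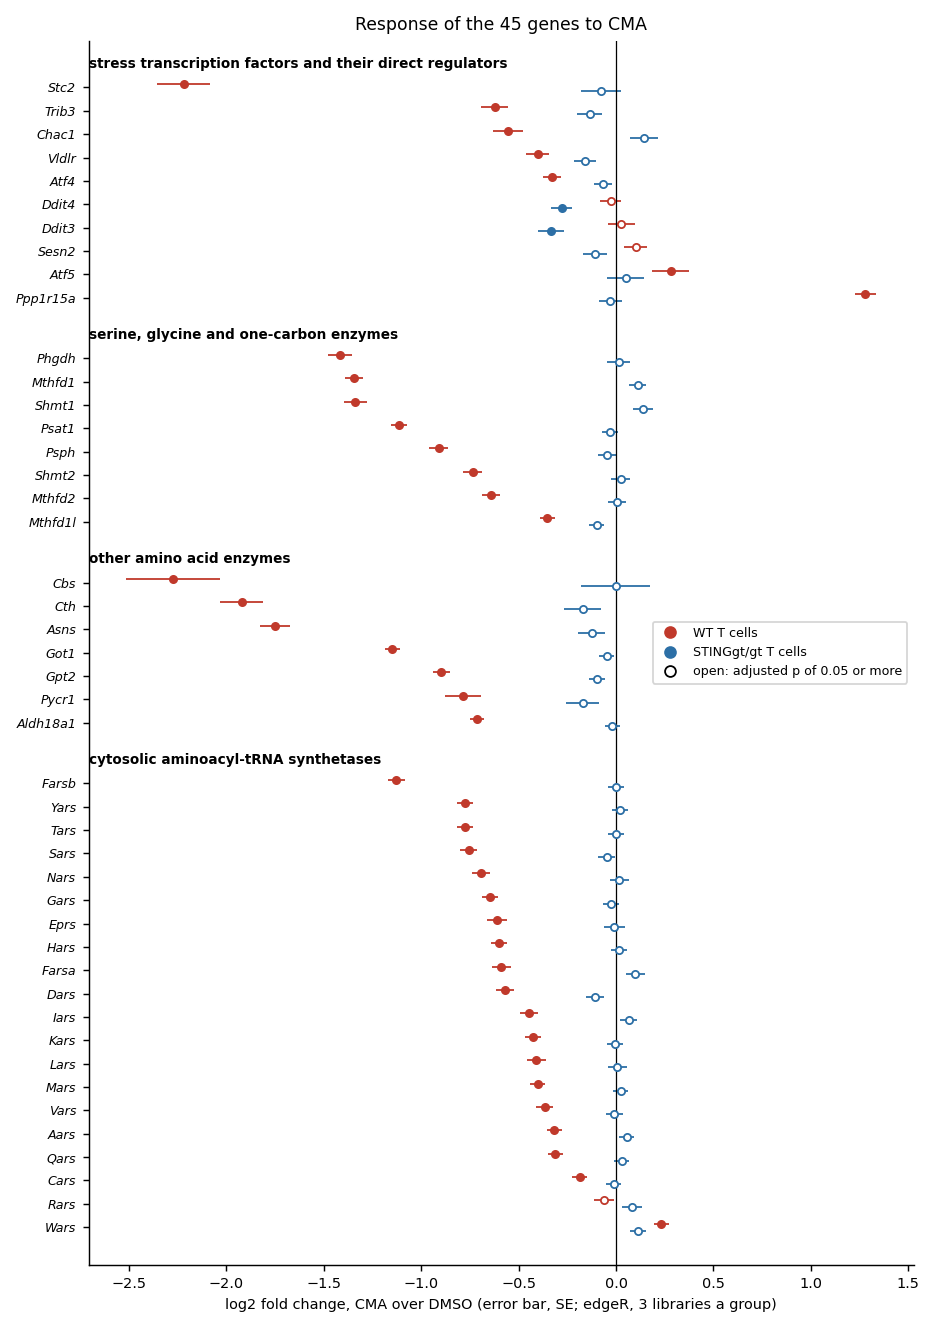
Log2 fold change (CMA over DMSO, horizontal axis) of each of the 45 genes in WT cells (red) and STINGgt/gt cells (blue), with its standard error, grouped by role. Filled points passed the test. In WT cells 38 genes lie to the left of 0 and 3 to the right as filled points, while in STINGgt/gt cells only Ddit3 and Ddit4 are filled.

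The stress factors did not move as one group. Of the 10, 5 fell and 2 rose in WT cells with CMA, and 3 did not pass the test. Atf4 itself (chr15:80255184-80257540, plus strand, GRCm38) was among the most abundant of the 45 genes, with 394, 429 and 395 CPM in WT cells with DMSO and 324, 324 and 322 CPM with CMA. All 3 CMA libraries lay below all 3 DMSO libraries, and the fall was modest, with a log2 fold change of -0.33 ± 0.05 (SE, edgeR adjusted p = 7.14e-06).

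Ppp1r15a (chr7:45522916-45526268, minus strand), which encodes GADD34, the phosphatase subunit that removes phosphate from eIF2 and so ends the response, went the other way. It was at 47.0, 54.3 and 47.4 CPM with DMSO and at 119, 117 and 125 CPM with CMA in WT cells. The groups did not overlap, and the log2 fold change was 1.28 ± 0.06 (edgeR adjusted p = 4.16e-12). The log2 ratio of Ppp1r15a to Atf4 therefore moved from -3.04 ± 0.05 (SD, n = 3) to -1.43 ± 0.05 in WT cells, a separation already fixed by the opposite moves of the 2 genes and so given with no test. In STINGgt/gt cells this ratio was -3.52 ± 0.11 with DMSO and -3.48 ± 0.07 with CMA. Exons of Ppp1r15a overlap Tulp2 on the opposite strand.

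Stc2 (chr11:31357307-31370074, minus strand), a secreted glycoprotein induced by ER and nutrient stress, fell the most among the stress genes. It stood at 22.6, 21.4 and 16.4 CPM with DMSO and only 4.82, 4.07 and 3.91 CPM with CMA, so that 21.2% of its level was left. Its log2 fold change was -2.22 ± 0.14 (edgeR adjusted p = 3.11e-10). Trib3 fell from 51.3, 54.5 and 45.6 CPM to 31.7, 34.1 and 32.3 CPM, a log2 fold change of -0.62 ± 0.07. Chac1 fell from 16.4, 17.9 and 15.5 CPM to 11.5, 11.5 and 10.9 CPM, a log2 fold change of -0.55 ± 0.08. Both have the letters of the composite element in the stretches shown above, and for both the CMA libraries lay wholly below the DMSO libraries. Vldlr, a lipoprotein receptor, fell less (-0.40 ± 0.06).

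Atf5, a leucine zipper factor related to ATF4, rose slightly from 18.8, 22.4 and 18.9 CPM to 24.5, 23.3 and 25.2 CPM. The groups did not overlap, but the margin was small, and the call (edgeR adjusted p = 0.0147) was lost without the first WT DMSO library (adjusted p = 0.0507). Exons of Atf5 overlap Il4i1 and Nup62 on the opposite strand, and the strand setting of the counting is not given in the sources used here.

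The other stress genes did not pass the test in WT cells. Ddit3, which encodes CHOP, was at 37.1, 40.7 and 31.7 CPM with DMSO and 36.2, 38.1 and 37.0 CPM with CMA. Ddit4, an inhibitor of the growth kinase complex mTORC1, was at 434, 466 and 402 CPM and 425, 441 and 412 CPM. Sesn2, a leucine sensor that also restrains mTORC1, was at 80.0, 81.4 and 68.8 CPM and 85.4, 83.7 and 77.2 CPM. For each of the 3 genes the WT groups overlapped, and none passed the test (edgeR adjusted p = 0.739, 0.677 and 0.153). Sesn2 did pass, as a rise, in 4 of 22 alternatives. These were limma on the log2 table, at least 10 counts in every library, the replicate block, and the fit without the second WT DMSO library.

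**Figure D2:**
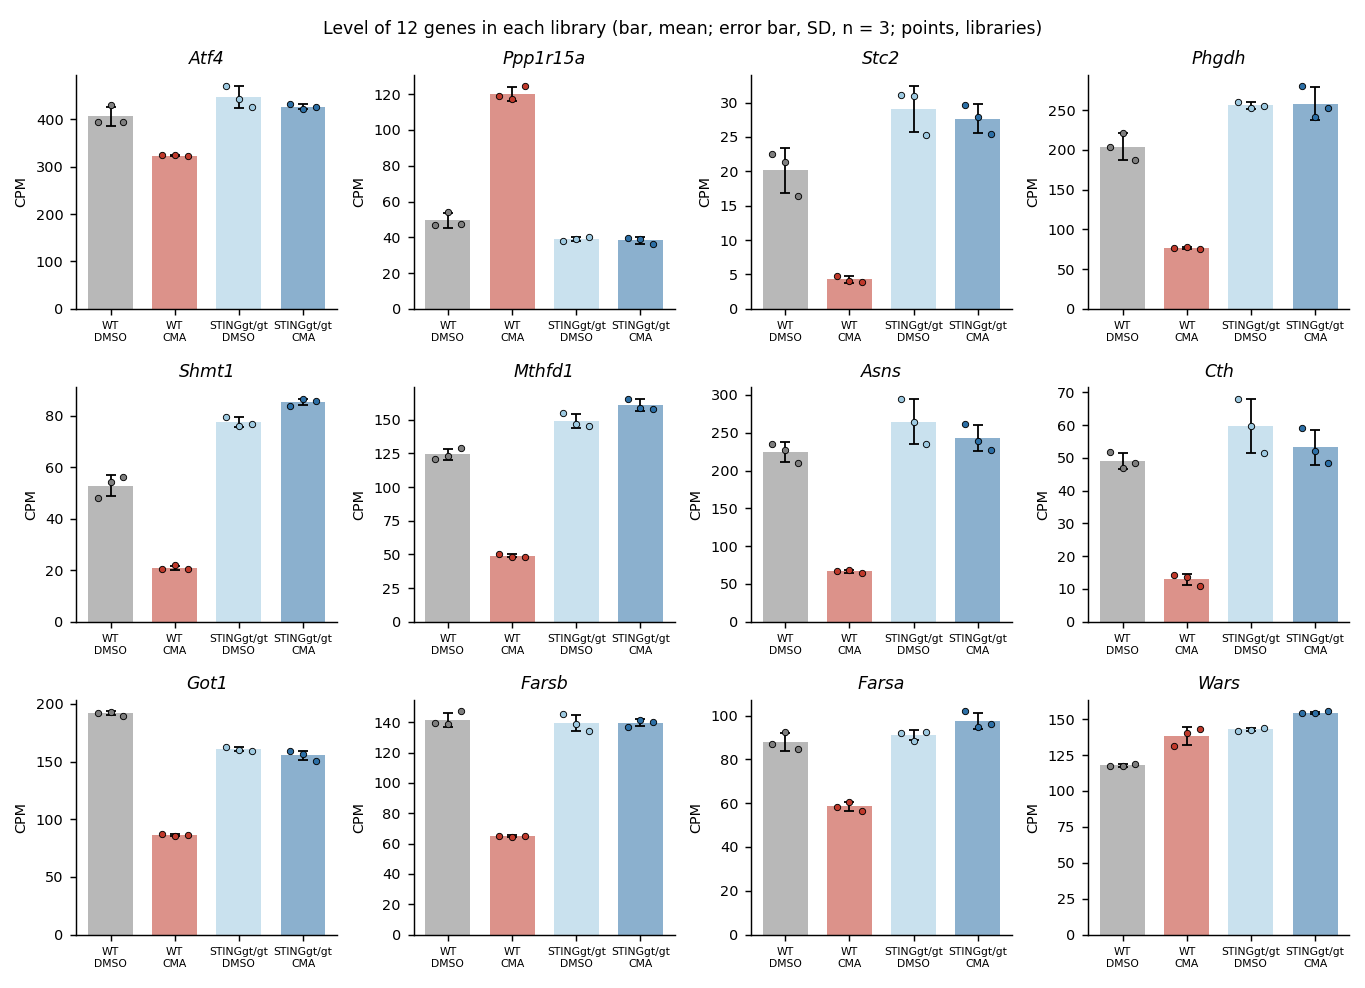
Level in CPM (vertical axis, from 0) of 12 of the 45 genes in each of the 12 libraries, with bars for group means, error bars for the SD (n = 3) and points for libraries. WT cells with CMA (red) stand below the other groups for 10 of the 12 genes, above them for Ppp1r15a, and above WT cells with DMSO for Wars.

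All 8 serine, glycine and one-carbon enzymes fell in WT cells, with a median log2 fold change of -1.01. Phgdh (chr3:98313170-98339990, minus strand), the entry enzyme of serine synthesis from glucose, was at 204, 221 and 187 CPM with DMSO and 76.1, 78.0 and 74.9 CPM with CMA. With CMA 37.4% of its DMSO level remained (-1.42 ± 0.06, edgeR adjusted p = 4.57e-12). Psat1, which acts next, fell from 574, 571 and 561 CPM to 266, 266 and 256 CPM (-1.11 ± 0.04). Psph, which releases serine in the last step, fell from 107, 111 and 114 CPM to 58.5, 58.6 and 59.7 CPM (-0.91 ± 0.05). The fall was thus deepest for the first enzyme of the pathway and shallowest for the last, and each group of 3 CMA libraries lay clear of its DMSO group.

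In the folate cycle the cytosolic enzymes fell more than the mitochondrial ones. Shmt1 (chr11:60788104-60811718, minus strand), the cytosolic serine hydroxymethyltransferase, was at 48.1, 54.3 and 56.2 CPM with DMSO and 20.5, 21.9 and 20.5 CPM with CMA (-1.34 ± 0.06, edgeR adjusted p = 3.46e-12). Shmt2, its mitochondrial counterpart, was at 412, 439 and 394 CPM and 247, 252 and 248 CPM (-0.74 ± 0.05). The same held for the enzymes that interconvert folate-bound one-carbon units. Mthfd1, the cytosolic enzyme, fell from 121, 123 and 129 CPM to 50.4, 48.3 and 48.2 CPM (-1.35 ± 0.05). Mthfd2, in the mitochondrion, fell from 368, 351 and 364 CPM to 235, 226 and 233 CPM (-0.64 ± 0.05), and Mthfd1l, which releases mitochondrial formate, from 256, 240.2 and 252 CPM to 193, 194 and 198 CPM (-0.35 ± 0.04). The order between cytosolic and mitochondrial genes is a description and was not tested. Exons of Psph, Shmt1, Shmt2 and Mthfd1 overlap genes on the opposite strand.

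All 7 other amino acid enzymes fell in WT cells, with a median log2 fold change of -1.15, and this group held 4 of the 10 genes that fell by more than 2-fold. Asns (chr6:7675169-7693254, minus strand), the asparagine synthetase and a classic ATF4 target, was at 235, 228 and 209.7 CPM with DMSO and 67.1, 67.9 and 64.8 CPM with CMA. With CMA 29.7% of its DMSO level remained (-1.75 ± 0.08, edgeR adjusted p = 3.53e-12). Got1 (chr19:43499752-43524605, minus strand), the cytosolic aspartate transaminase, fell from 192, 193 and 190.0 CPM to 87.2, 85.7 and 86.6 CPM. The CMA libraries lay wholly below the DMSO libraries (-1.15 ± 0.04, edgeR adjusted p = 1.49e-13).

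The enzymes of transsulfuration, the route from homocysteine to cysteine, fell the most within this group on the log2 scale. Cth (chr3:157894248-157925077, minus strand), which releases cysteine, was at 51.6, 47.0 and 48.4 CPM with DMSO and 14.1, 13.6 and 10.9 CPM with CMA (-1.92 ± 0.11, edgeR adjusted p = 1.16e-10). Cbs, the enzyme before it, went from 1.67, 1.64 and 1.66 CPM to 0.363, 0.154 and 0.504 CPM (-2.27 ± 0.24). Cbs was the scarcest of the 45 genes, with 46 to 68 reads per WT DMSO library and 5 to 16 per WT CMA library.

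Proline and alanine synthesis fell by smaller amounts. Aldh18a1, which begins proline synthesis from glutamate, fell from 245, 242 and 249 CPM to 148, 152 and 149 CPM (-0.71 ± 0.04). Pycr1, which completes it, fell from 20.6, 20.3 and 18.8 CPM to 11.4, 12.0 and 11.2 CPM (-0.78 ± 0.09). Gpt2, the mitochondrial alanine transaminase, fell from 52.0, 50.5 and 49.3 CPM to 26.9, 26.8 and 27.7 CPM (-0.90 ± 0.04). None of the 3 had a CMA library within the range of its DMSO libraries.

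Of the 20 cytosolic aminoacyl-tRNA synthetases, the enzymes that join each amino acid to its tRNA, 18 fell in WT cells, 1 rose and 1 did not pass the test, with a median log2 fold change of -0.51. Farsb (chr1:78417958-78488859, minus strand), the beta subunit of phenylalanyl-tRNA synthetase, stood out, with 139, 139 and 147 CPM with DMSO and 65.1, 64.4 and 65.2 CPM with CMA (-1.13 ± 0.04, edgeR adjusted p = 7.93e-13). Its partner Farsa, the alpha subunit of the same enzyme, fell from 87.2, 92.7 and 84.7 CPM to 58.5, 60.8 and 56.6 CPM (-0.59 ± 0.05). The 2 subunits assemble in equal numbers, yet their mRNAs moved unequally. Their log2 ratio, Farsb over Farsa, was 0.69 ± 0.11 (SD, n = 3) in WT cells with DMSO and 0.15 ± 0.06 with CMA, without overlap (two-sided exact permutation p = 0.1, the smallest that 3 against 3 libraries can give). In STINGgt/gt cells it was 0.61 ± 0.07 and 0.52 ± 0.08 (exact permutation p = 0.3).

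The next largest falls were those of Yars for tyrosine (-0.78 ± 0.04), Tars for threonine (-0.77 ± 0.04), Sars for serine (-0.76 ± 0.04), Nars for asparagine (-0.69 ± 0.05) and Gars for glycine (-0.65 ± 0.04). Sars was at 476, 501 and 466 CPM with DMSO and 285, 284 and 285 CPM with CMA. Tars went from 216, 219.7 and 231 CPM to 129, 128 and 132 CPM, and Yars from 195, 202 and 201 CPM to 117, 116 and 116 CPM. In none of these genes did the groups overlap. Exons of Farsb and Yars overlap Sgpp2 and C77080 on the opposite strand.

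Eprs, which charges both glutamate and proline, fell by 0.61 on the log2 scale, Hars (histidine) fell by 0.60, Farsa fell by 0.59 and Dars (aspartate) fell by 0.57. Iars (isoleucine) fell by 0.45, Kars (lysine) fell by 0.42, Lars (leucine) fell by 0.41 and Mars (methionine) fell by 0.40. Vars (valine) fell by 0.37, Aars (alanine) fell by 0.32, Qars (glutamine) fell by 0.31 and Cars (cysteine) fell by 0.19. Even for Aars, one of the smaller falls, the CMA values of 324, 320.4 and 328 CPM lay below the DMSO values of 401, 407 and 404 CPM. Exons of Hars overlap Hars2, those of Mars overlap Ddit3 and those of Cars overlap Gm15580, each on the opposite strand, and those of Aars overlap Exosc6 on the same strand.

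Wars (chr12:108860030-108894174, minus strand), the tryptophanyl-tRNA synthetase and a known interferon-inducible gene, was the one synthetase that rose. It was at 117, 117 and 119 CPM in WT cells with DMSO and 132, 140.3 and 143 CPM with CMA (0.23 ± 0.04, edgeR adjusted p = 7.17e-05). In STINGgt/gt cells it was at 142, 143 and 144 CPM with DMSO and 154, 154 and 155 CPM with CMA, where the groups did not overlap but the test was not passed (0.11 ± 0.04, adjusted p = 0.216). Whether the rise in WT cells differed from the response of STINGgt/gt cells depended on the method (difference 0.12 ± 0.06, edgeR adjusted p = 0.0795). The difference passed in 5 of 21 alternatives, DESeq2 and limma on the log2 table among them, and the adjusted p ranged from 0.0129 to 0.209 over all of them. Against Yars, Wars moved from a log2 ratio of -0.76 ± 0.02 to 0.25 ± 0.07 in WT cells. This shift was already fixed by the opposite moves of the 2 genes, and it is given with no test. In STINGgt/gt cells the ratio of Wars to Yars was -0.58 ± 0.07 with DMSO and -0.49 ± 0.02 with CMA. Rars (arginine), at 135, 135 and 150.1 CPM and 132, 129 and 141 CPM, did not pass the test (-0.06 ± 0.05, edgeR adjusted p = 0.283).

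In the multisynthetase complex sit 8 of the 20 synthetases (Eprs, Iars, Lars, Mars, Qars, Rars, Kars and Dars). Their log2 fold changes in WT cells ran from -0.61 to -0.06 with a median of -0.42, and 7 of the 8 fell. The other 12 ran from -1.13 to 0.23 with a median of -0.62, and 11 fell. This split was made after the values were seen and was not tested. The 3 scaffold proteins of the complex also fell, Eef1e1 with a log2 fold change of -0.88 and Aimp2 with -0.58 the most.

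Compared per kilobase of exon, the most abundant of the 45 genes in WT cells with DMSO were Ddit4 (247 ± 18.3 CPM per kb, SD, n = 3), Atf4 (172 ± 8.61), Gars (145 ± 3.98), Psat1 (134 ± 1.60) and Shmt2 (133 ± 7.33). Psat1 and Shmt2 did not differ beyond their spread. At the other end stood Vldlr (5.12 ± 0.34), Pycr1 (5.06 ± 0.248), Stc2 (3.89 ± 0.633) and Cbs (0.222 ± 0.0021). CMA reordered this list in WT cells. Phgdh went from place 9 of 45 to place 23, Asns from 10 to 27, and Mthfd1 from 29 to 37. Ppp1r15a rose from place 37 to place 16 and Wars from 26 to 17, while Ddit4, Atf4 and Gars kept places 1, 2 and 3. These lengths join the exons of all annotated transcripts of a gene, which can understate the level of a gene such as Eprs with 18102 bases.

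**Figure D3:**
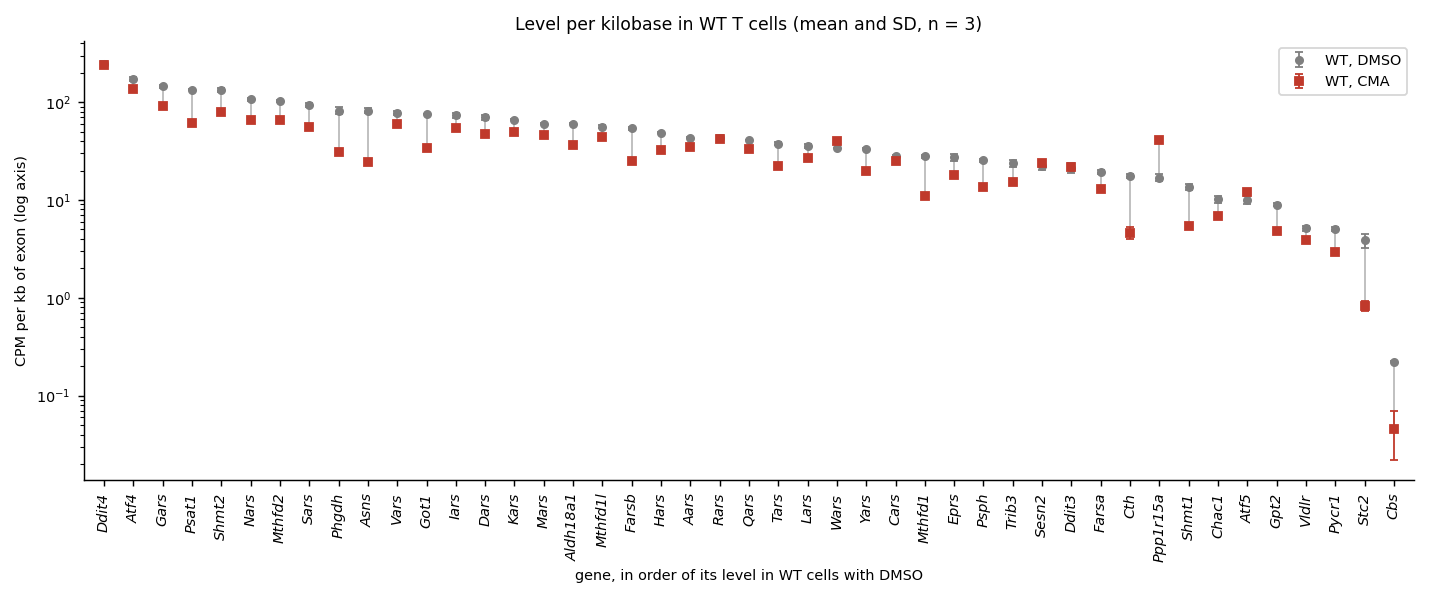
Level per kilobase of exon (vertical log axis, CPM per kb) of each gene in WT cells with DMSO (grey circles) and CMA (red squares), mean and SD of 3 libraries, ordered by the DMSO level. The longest drops are those of Cbs, Stc2, Cth and Asns, and Ppp1r15a is the one gene that climbs clearly.

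In STINGgt/gt cells the same genes hardly moved with CMA. None of the 45 rose and 2 fell, against 0.398% and 0.92% of all genes tested, and 10 of the 45 had an unadjusted p under 0.05, as had 1790 of all 13811 genes. Log2 fold changes ran from -0.33 to 0.14 with a median of -0.01. Asns was at 295, 264 and 235 CPM with DMSO and 262, 239 and 228 CPM with CMA, and Farsb at 145, 139 and 134 CPM and 137, 142 and 140.2 CPM. Phgdh was at 260.1, 252 and 255 CPM and 281, 242 and 253 CPM. For these 3 genes the groups overlapped. Ppp1r15a, which rose in WT cells, was at 38.1, 39.0 and 39.9 CPM and 39.4, 39.2 and 36.1 CPM.

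The 2 genes that fell in STINGgt/gt cells were ones that did not pass the test in WT cells. Ddit3 went from 44.1, 44.5 and 42.3 CPM to 35.4, 34.7 and 33.8 CPM (-0.33 ± 0.07, edgeR adjusted p = 0.0214). Ddit4 went from 356, 372 and 354 CPM to 314, 282 and 296 CPM (-0.28 ± 0.05, edgeR adjusted p = 0.017). Both pairs of groups were separate, but the calls were fragile. Leaving out any 1 of the 6 STINGgt/gt libraries ended the call for Ddit3, and leaving out any but the first CMA library ended that for Ddit4. Exons of Ddit3 overlap Mars on the opposite strand and a second annotated Ddit3 entry on the same strand.

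The test of the difference between genotypes asked whether CMA acted differently on WT and STINGgt/gt cells. For 38 of the 45 genes the effect was more negative in WT cells and for 4 it was more positive, against 31.6% and 27.2% of all genes tested (edgeR, adjusted p under 0.05). The median difference was -0.62 on the log2 scale over the 45 genes and -0.03 over all genes. The largest negative differences were those of Cbs (-2.27 ± 0.30), Stc2 (-2.14 ± 0.17), Cth (-1.75 ± 0.14) and Asns (-1.62 ± 0.10), followed by Shmt1 (-1.48 ± 0.08), Mthfd1 (-1.46 ± 0.06) and Phgdh (-1.43 ± 0.09). The largest positive difference was that of Ppp1r15a (1.31 ± 0.08, edgeR adjusted p = 8.01e-10). Ddit3 (0.36 ± 0.10), Ddit4 (0.25 ± 0.08) and Sesn2 (0.21 ± 0.09) were positive as well. Sesn2 was close to the threshold (edgeR adjusted p = 0.0473). The 3 genes without a call were Atf5, Wars and Rars. Like that of Wars, the results of the other genes depended on the method. Rars passed, with a more negative effect in WT cells, in 4 of 21 alternatives, the replicate block among them. Atf5 passed, with a more positive effect, in 3 of 21.

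WT and STINGgt/gt cells already differed with DMSO alone, by smaller amounts. Of the 45 genes 23 were lower in WT cells and 4 were higher, against 19.8% and 22.9% of all genes tested, and the median log2 difference, WT minus STINGgt/gt, was -0.13 over the 45 genes and -0.0018 over all genes. No difference reached 2-fold. This comparison and that of CMA in WT cells share the WT DMSO libraries.

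Shmt1 showed the largest gap, with 48.1, 54.3 and 56.2 CPM in WT cells and 79.6, 75.8 and 76.9 CPM in STINGgt/gt cells (-0.55 ± 0.05, edgeR adjusted p = 3.95e-07). Stc2 was at 22.6, 21.4 and 16.4 CPM against 31.1, 30.9 and 25.2 CPM (-0.55 ± 0.11). Both were lower in every WT library than in any STINGgt/gt library. Gpt2 (-0.36 ± 0.04), Lars (-0.33 ± 0.05), Phgdh (-0.33 ± 0.06) and Trib3 (-0.31 ± 0.07) followed. Lars was at 189, 185 and 199.8 CPM in WT cells and 245, 246 and 230.3 CPM in STINGgt/gt cells.

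The 4 genes that were higher in WT cells were Ppp1r15a (0.34 ± 0.06), Ddit4 (0.27 ± 0.05), Got1 (0.26 ± 0.04) and Qars (0.15 ± 0.04). Ddit4 was at 434, 466 and 402 CPM in WT cells and 356, 372 and 354 CPM in STINGgt/gt cells, and Got1 was at 192, 193 and 190.0 CPM and 163, 159.7 and 159 CPM, each without overlap. The B cell, myeloid and CD8 or natural killer markers summed above were also higher in WT cells with DMSO than in STINGgt/gt cells, and their part in these differences was not tested. The count of genes lower in WT cells moved from 23 to 17 without the first STINGgt/gt DMSO library, which held the highest Asns and Cth values of its group. Without that library the calls for Asns (edgeR adjusted p = 0.0824) and Cth (adjusted p = 0.139) were lost.

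**Figure D4:**
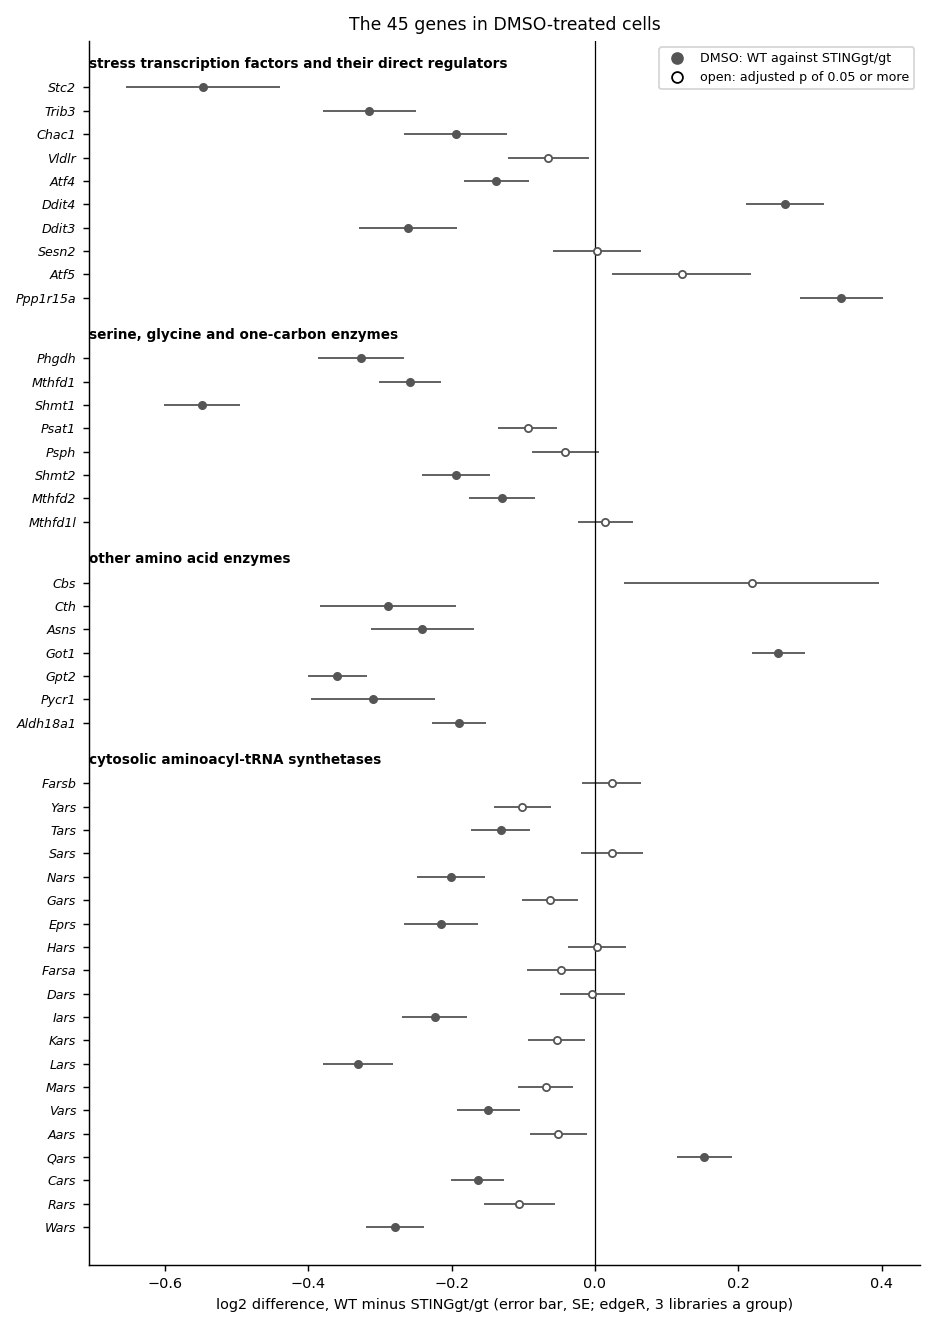
Log2 difference between WT and STINGgt/gt cells with DMSO (horizontal axis, WT minus STINGgt/gt, with standard error) of each gene, in the order of the plot of CMA responses. Filled points passed the test, 23 of them to the left of 0 and 4 (Ppp1r15a, Ddit4, Got1 and Qars) to the right.

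Other genes of the same pathways moved in WT cells in both directions. Of 12 genes for eIF2 kinases, eIF2 and eIF2B subunits and the phosphatase, 3 rose and 8 fell, with a median log2 fold change of -0.35. All counts of this kind stand against the 33% of all genes tested that rose and the 37.4% that fell. Eif2ak2, the interferon-inducible kinase PKR, went from 47.7, 47.1 and 66.1 CPM to 249, 245 and 246 CPM (2.19 ± 0.10). Eif2ak3, the ER stress kinase PERK, went from 61.6, 54.7 and 57.4 CPM to 126, 124 and 129 CPM (1.12 ± 0.05). The other kinases of the list, named after their values were seen, did not follow. Eif2ak4, the amino acid sensing kinase GCN2, fell (-0.45 ± 0.05), and Eif2ak1 did not pass the test (0.03 ± 0.04, edgeR adjusted p = 0.61). Eif2b3 (-1.28 ± 0.07) and Eif2b1 (-0.52 ± 0.05), subunits of the exchange factor that reloads eIF2, fell.

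Among 11 further ATF4 partners and targets that could be tested, 2 rose and 3 fell, both smaller shares than over all genes, and the median log2 fold change was -0.06. Atf3, a stress-induced repressor, went from 67.9, 68.4 and 62.6 CPM to 164, 164 and 157 CPM (1.29 ± 0.05), and Sqstm1, an autophagy receptor, rose too (0.81 ± 0.04). Xpot, which exports tRNA from the nucleus (-0.95 ± 0.05), and Cebpb, a dimer partner of ATF4 (-0.57 ± 0.11), fell. Fgf21 was too low to be tested.

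Of 10 amino acid transporters 7 fell and 1 rose, with a median log2 fold change of -0.29. Slc7a5, the large neutral amino acid carrier of activated T cells, went from 490.2, 501 and 499.6 CPM to 224, 228 and 221 CPM (-1.15 ± 0.04), and Slc7a3, a carrier of cationic amino acids, fell as well (-1.45 ± 0.12). Slc38a2, a sodium-coupled neutral amino acid carrier, rose from 295, 278 and 319 CPM to 401, 396 and 426 CPM (0.46 ± 0.05). Carriers thus did not all follow the enzymes.

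Of 17 mitochondrial synthetases 11 fell and 1 rose, with a median log2 fold change of -0.35, and Nars2 (-1.19 ± 0.08) fell the most. Of 14 further serine, folate and proline enzymes 7 fell and 3 rose, with a median log2 fold change of -0.11, near the -0.04 over all genes. Aldh1l2, a mitochondrial folate enzyme, fell from 30.2, 27.0 and 27.0 CPM to 6.97, 6.17 and 5.10 CPM (-2.20 ± 0.12), and Prodh, which degrades proline, fell from a low level (-1.46 ± 0.20). Glud1, the glutamate dehydrogenase, was among those that rose (0.30 ± 0.04). In STINGgt/gt cells none of the genes in these lists passed the test with edgeR, and 1 of 12, 3 of 11, 2 of 10, 0 of 17, 0 of 3 and 4 of 14 had an unadjusted p under 0.05, in the order of the eIF2 genes, the ATF4 partners, the transporters, the mitochondrial synthetases, the scaffolds and the further enzymes, against the 1790 of all 13811 genes given above.

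Genes with and without the letters of the composite element had similar medians, a description that was not tested. All 11 genes with the motif in a promoter fell in WT cells, with log2 fold changes from -1.75 to -0.32 and a median of -0.65. Of the 26 genes in the table without it, 21 fell, 2 rose and 3 did not pass the test, with a median of -0.63. Phgdh, Mthfd1 and Stc2, with some of the deepest falls, had no match in these windows, which says only that these letters were not found there.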

How the data were processed

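The deposited counts per gene were made by the authors from stranded mRNA libraries, and the submitters' processing notes name cutadapt 1.3, STAR 2.4.0f1, HTSeq 0.6.1, RSEM 1.2.16 and GRCm38. Each count file ends in 5 tally lines that name no gene, which were left out (27.8% to 30.3% of reads not unique, 4.86% to 7.16% on no feature, 0.594% to 0.635% ambiguous). In WT cells the share on no feature was 4.86% to 5.47% with DMSO and 6.79% to 7.16% with CMA. The share not unique was 29.6% to 30.3% and 27.8% to 27.9% there. In STINGgt/gt cells the DMSO and CMA groups overlapped in both shares. The part of these shares in the results was not tested. The deposited log2 table of 11921 genes holds, per the values, log2 of the authors' count plus 0.5 with an offset for each library, and it served as an alternative. Counts were fitted in edgeR 4.0.16 (R 4.3.3) with TMM scaling, the filterByExpr filter and 1 quasi-likelihood model over the 4 groups, and p-values were adjusted by Benjamini and Hochberg over all 13811 genes. Fold changes are given with standard errors. The script was tested on simulated counts. Alternatives were library-size scaling, DESeq2 1.42.0, limma-voom and limma 3.58.1 on the log2 table, other filters, only the groups compared, a replicate block, each library left out, and stricter thresholds. The ratio of Farsb to Farsa was tested by exact permutation. Positions and lengths come from GENCODE M21 (GRCm38) and promoters from RefSeq (GRCm38.p6). Exons of 13 of the 45 genes overlap another gene, and the strand setting of the counting is not given in the sources used here. The genes and lists were chosen with earlier results of these data known, and so were the tests. Any of the 45 genes could be named, those with separate groups and the largest change first, together with at most 2 genes in each direction from each other list, and 2 further eIF2 kinases were named after their values were seen. Single results for some genes of those lists are not reported here.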

Additional observations from a re-analysis of the deposited data

Results flagged for a closer look

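A test of the difference itself found unequal CMA responses in the 2 genotypes for 42 of the 45 genes (edgeR, adjusted p under 0.05 over all genes tested), and each value below is the log2 effect in WT minus that in STINGgt/gt cells. Among the stress factors it was -2.14 for Stc2, -0.70 for Chac1, -0.49 for Trib3, -0.26 for Atf4, -0.24 for Vldlr, 0.21 for Sesn2, 0.25 for Ddit4, 0.36 for Ddit3 and 1.31 for Ppp1r15a. Among the serine, glycine and one-carbon enzymes it was -1.48 for Shmt1, -1.46 for Mthfd1, -1.43 for Phgdh, -1.08 for Psat1, -0.87 for Psph, -0.76 for Shmt2, -0.65 for Mthfd2 and -0.25 for Mthfd1l. Among the other amino acid enzymes it was -2.27 for Cbs, -1.75 for Cth, -1.62 for Asns, -1.10 for Got1, -0.80 for Gpt2, -0.70 for Aldh18a1 and -0.61 for Pycr1. Among the cytosolic synthetases it was -1.13 for Farsb, -0.80 for Yars, -0.77 for Tars, -0.71 for Nars, -0.71 for Sars, -0.69 for Farsa, -0.62 for Gars, -0.62 for Hars, -0.60 for Eprs, -0.51 for Iars, -0.46 for Dars, -0.43 for Mars, -0.42 for Kars, -0.42 for Lars, -0.37 for Aars, -0.36 for Vars, -0.34 for Qars and -0.17 for Cars. Of all genes tested, 27.2% had a more positive and 31.6% a more negative effect in WT cells. Sesn2 lost its call when any 1 of 7 libraries was left out and with library-size scaling, Vldlr lost its call when any 1 of 4 libraries was left out, and Cars lost its call with no filter on low counts (adjusted p = 0.0796).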

How the results depend on the processing

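With CMA in WT cells, 38 genes fell in every fit that left out 1 library, and 2 to 4 rose (2 without the first WT DMSO library). In STINGgt/gt cells 0 rose and 0 to 2 fell in these fits, with 0 left at an adjusted p under 0.01 and 0 under the 2-fold threshold. With only the groups compared, 1 gene (Shmt1) rose there. The difference between genotypes was more positive for 3 to 5 and more negative for 37 to 39 genes. With DMSO, 4 were higher and 17 to 24 lower in WT cells (17 without the first STINGgt/gt DMSO library). Requiring at least 2-fold left 1 rise and 10 falls in WT cells, 1 and 10 for the difference between genotypes, and 0 and 0 with DMSO. The drop follows from the threshold itself. No call changed sign in any alternative. Whether same-numbered DMSO and CMA libraries shared a source is not stated. Their sample names begin with the same digit, except for the second STINGgt/gt pair. The correlations of same-numbered deviations were 0.00, 0.10 and 0.13 in WT and 0.06 in each STINGgt/gt pair, so not every pair was above 0.1. Different-numbered pairs were not compared, so these values do not decide whether the samples were paired. The main model had no block for pairs. With the replicate block, 4 rose and 38 fell in WT cells, 0 rose and 2 fell in STINGgt/gt cells, the difference was positive for 4 and negative for 39, and with DMSO 4 were higher and 23 lower. With DMSO the calls for Atf4, Chac1, Mthfd2, Tars, Asns and Cth were lost without 1 or more of the DMSO libraries, and those for Atf4, Chac1, Mthfd2 and Tars also with only the groups compared, which left 19 lower in WT cells. Depth limits Cbs most, at 5 to 16 reads in WT cells with CMA.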
